A study of Mus musculus with 12 samples.

Results

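The genes described here encode the proteins that license replication origins, build the replicative helicase and keep the replication fork together. They were taken by name, as a list of 41 genes, and 40 of them were measured, among 18193 genes on the arrays. The level of Chaf1a, the large subunit of the chromatin assembly factor CAF-1, was not analysed here. RNA of 12 samples was hybridised to Affymetrix mouse arrays, which read a gene through one or more probe sets, and levels are given on a log2 scale, on which a difference of 1 is a 2-fold change. The medulloblastomas (MBs), malignant tumors of the cerebellum, came from 8 Nestin-Cre p53-/- mice with a conditional Xrcc4 allele, Xrcc4 c/c in MB_706 and MB_1206 and Xrcc4 c/- in MB_630, MB_794, MB_1187, MB_1197, MB_1207 and MB_1224. XRCC4 is a core factor of classical non-homologous end joining and p53 the main effector of the DNA damage checkpoint. The Cre recombinase is driven by the nestin promoter, so Xrcc4 is removed in neural progenitors of every lineage and not in granule progenitors alone. Normal tissue was given by cerebellar granule progenitors (CGNPs) of 2 mice, CGNP_2698 and CGNP_2705, and by whole cerebellum (WC) of 2 mice, WC_2646 and WC_2647. The paper calls these animals age-matched and of the same genotype as the tumor-bearing mice, so by that account Nestin-Cre, p53 loss and the Xrcc4 alleles are shared by all groups, while the labels give only normal tissue and no age. The labels call the MBs tumor tissue, but the paper lists several of them among its cultured MB cells, and which material gave the RNA is not settled by either source. Each sample came from its own mouse, and the normal groups held 2 mice each, so the number of arrays limits the precision. The p-values and intervals rest on a spread per gene that all groups share, and the 8 MBs contribute most to it. Those of CGNPs against WC therefore rest largely on the spread among tumors.

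Replication is prepared in G1, when the origin recognition complex (ORC) marks origins and CDC6 and CDT1 load the MCM2-7 ring onto the DNA, a step that geminin blocks once S phase has begun. The kinase CDC7 with its activator DBF4 then switches the ring on, CDC45 and the GINS complex join it to form the working helicase, RPA coats the single strands, primase starts the new strands and RFC loads the PCNA clamp that holds the polymerases. In mammalian cells many of these genes are transcribed at the G1/S boundary under E2F transcription factors. In the cerebellum granule progenitors are among the cells that divide after birth, whereas most cells of the whole cerebellum are neurons that have left the cell cycle.

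Xrcc4 itself read 2.44 to 3.57 in MBs, 3.57 and 4.19 in CGNPs and 4.25 and 4.34 in WC, and whether its probe set lies in the deleted part is not given in the sources used here. The summed level of 9 proliferation markers (log2 of the sum) was 13.32 to 13.80 in MBs, 9.91 to 10.17 in CGNPs and 5.84 to 5.91 in WC, where 3 of them lay at the floor of the table. A gene is called at the floor of a group where all its samples lie within 0.5 of the table minimum of 2.20, and its fold is then given as a lower bound against that limit. Mki67, a marker of cycling cells, had a log2 level of 11.98 to 12.66 in MBs, 8.90 and 9.14 in CGNPs and 2.25 and 2.33 in WC. Summed granule lineage markers (6 measured) were 14.36 to 14.79 in MBs, 14.75 to 14.97 in CGNPs and 14.55 to 14.76 in WC. Against CGNPs 2 of them rose in MBs, 2 fell, Neurod1 at -0.89 and Zic2 at -0.54, and 2 did not pass. Those that rose were Barhl1, at 1.72, and Atoh1, at 11.13 to 12.55 in MBs against 6.04 and 5.87 in CGNPs. Summed mature granule neuron markers (6 measured) were 10.12 to 11.18 in MBs, 12.02 to 12.08 in CGNPs and 15.00 to 15.03 in WC, and Purkinje cell markers (6 measured) were 6.16 to 10.36 in MBs, 10.13 to 10.27 in CGNPs and 13.97 to 14.18 in WC. Such a sum follows its brightest genes. Gene by gene against CGNPs, 2 mature granule neuron markers fell in MBs and 4 did not pass (median difference -0.20). Of the Purkinje cell markers 2 fell and 4 did not pass (median 0.38, or 0.13 with 2 genes at their bounds). Summed astroglia markers (8 measured) were 10.20 to 13.71 in MBs, 14.26 to 14.38 in CGNPs and 13.70 to 13.93 in WC. Gene by gene, 1 of them rose in CGNPs over WC, Gfap at 4.01, while 2 fell and 5 did not pass. Mesenchymal markers (7) summed to 5.93 to 10.82 in MBs, 10.60 to 10.95 in CGNPs and 7.36 to 7.57 in WC, and microglia markers (10) to 10.99 to 12.35 in MBs, 7.63 to 8.70 in CGNPs and 8.92 to 9.14 in WC. Oligodendrocyte markers (7) summed to 6.71 to 9.38 in MBs, 8.35 to 9.69 in CGNPs and 12.63 to 12.67 in WC, and endothelial markers (7) to 5.40 to 8.27 in MBs, 5.18 to 5.26 in CGNPs and 9.09 to 9.28 in WC. The 3 blood markers measured lay at the floor in all groups. Against CGNPs, 4 of 8 astroglia, 6 of 7 mesenchymal and 2 of 7 oligodendrocyte markers fell in MBs and none rose. Of the 10 microglia markers 9 rose and none fell, and none of the 7 endothelial markers passed. The part of cell composition in the differences between groups was not tested, and in such bulk samples fewer cells of a type cannot be told apart from less RNA per cell. MB_706 stood apart: on the control probe sets the 3′ signal exceeded the 5′ signal by 2.94 log2 units in it, by 0.56 to 0.82 in the other MBs, by 0.15 to 0.23 in CGNPs and by 0.48 to 0.52 in WC. MB_630 stood apart in markers of other cell types, with the highest sum among MBs for Purkinje (10.36, against at most 8.10 in the other MBs), mesenchymal (10.82, against 8.14), endothelial (8.27, against 6.98) and mature granule neuron markers (11.18, against 10.54).

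The replication factors were higher in MBs than in either normal tissue. Against CGNPs, 39 of the 40 measured members rose (limma, adjusted p under 0.05 over all genes), none fell and Cdc7 did not pass, against 18.7% of all genes that rose and 18.6% that fell. The median difference over the members was 2.67 log2 units, or 6.37-fold, where the median over all genes was 0. Against WC, 37 members rose, none fell, and Orc3, Orc4 and Cdc7 did not pass, with a median of 2.88 (also with the 7 members at the floor of WC taken at their bounds), while 22.2% of all genes rose and 21.8% fell. All MBs lay above all CGNP samples for 39 members, against 21.2% of all genes, and above all WC samples for 38, against 24.3%. For 38 members, all but Orc4 and Cdc7, each of the 8 MBs lay above each of the 4 normal samples, which held for 15.5% of all genes. Both comparisons share the MB samples and are given side by side. CGNPs and WC differed less: 15 members (37.5%) rose in CGNPs, 4 fell (10%) and 21 did not pass, with a median of 0.48, where 14.9% of all genes rose and 13.6% fell. Without overlap, 26 members lay higher in CGNPs and 6 lower, against 31.5% and 27.8% of all genes. A log2 level above 5 was reached by the mean of 38 members in MBs, 25 in CGNPs and 21 in WC.

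**Figure D1:**
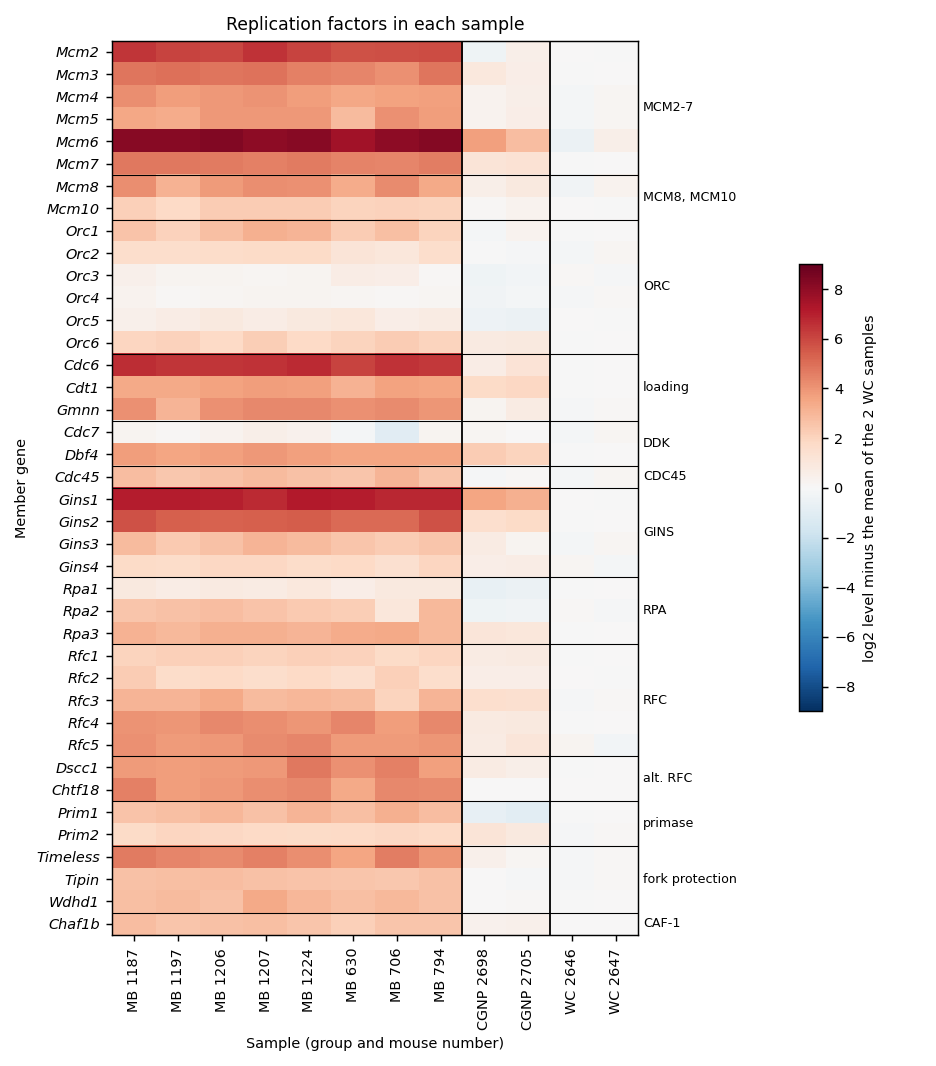
Log2 level of each of the 40 measured members (rows, by complex) in each of the 12 samples (columns, MBs left of CGNPs left of WC), as the difference from the mean of the 2 WC samples (color scale). The MB columns are red for nearly all members, with pale rows for Orc3, Orc4 and Cdc7, and Mcm6, Gins1, Cdc6 and Mcm2 are darkest.

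The promoters of the members were read for sequence words of E2F-type sites and for the CCAAT box. The RefSeq table (GRCm38.p6) holds windows of 250 bases before to 50 bases from the annotated start for 32 of the 41 members, 37 windows in all, and none for the other 9. The E2F-type words searched were TTTCCCGC, TTTCGCGC, TTTGCCGC and TTTGGCGC on both strands, and words may overlap. They occurred in 11 of the 37 windows (29.7%), against 744 of 32851 windows of all genes (2.26%). The genes with a word were Mcm3, Mcm5, Mcm6, Mcm7, Mcm8, Orc1, Orc3, Cdc6, Cdt1, Gins3 and Rfc3. CCAAT on either strand was in 23 of the 37 windows (62.2%), against 37.4% of all windows. Such a match is a string of letters and not a measured binding site. The median rise of the members over CGNPs was 3.09 for the 11 genes with an E2F-type word, with a range of 0.67 to 5.51, and 2.10 for the 20 measured genes with a window but no word, with a range of -0.02 to 6.02. For the 9 genes without a window it was 3.38. Whether an E2F-type word goes with a larger rise was not tested.

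**Figure D2:**
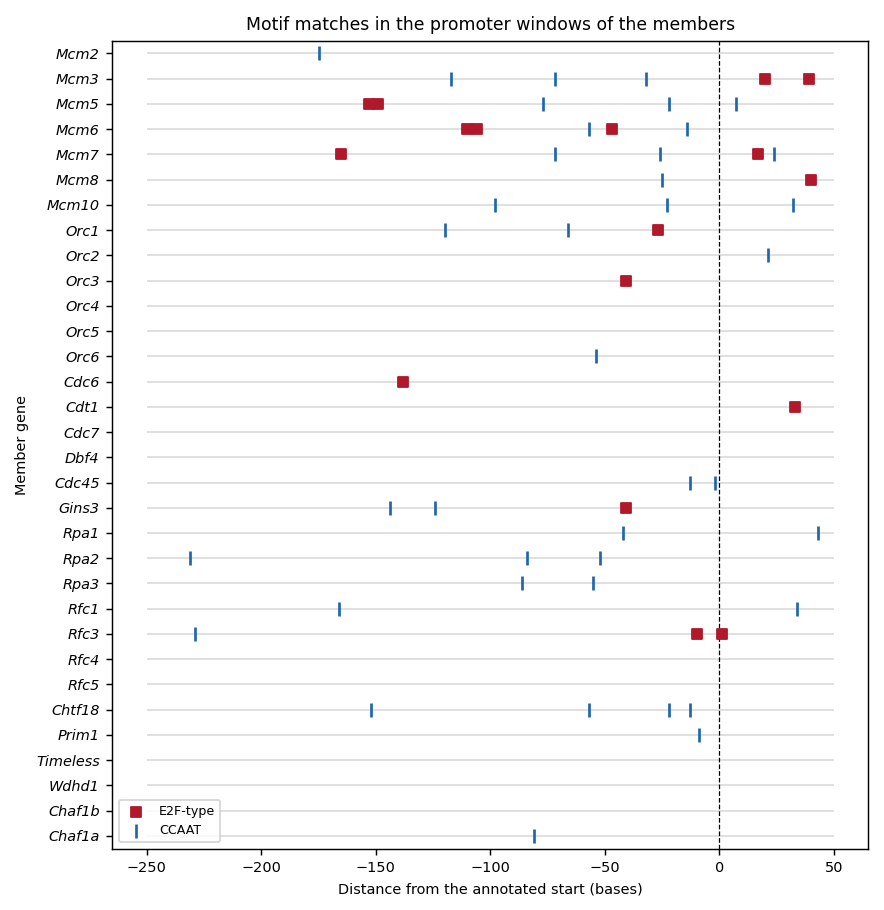
Distance from the annotated start (bases, dashed line) of each E2F-type word (red squares) and each CCAAT word (blue ticks) in the first listed promoter window of each of the 32 members with one (grey lines). E2F-type words stand in 11 genes, with several in Mcm3, Mcm5, Mcm6, Mcm7 and Rfc3, and the windows of Orc4, Orc5, Cdc7, Dbf4, Rfc4, Rfc5, Timeless, Wdhd1 and Chaf1b show neither word.

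The 170 bases before the start are printed for the member of each main complex that rose most over CGNPs and has a window, so that genes with and without a word can be read side by side. Lower case is plain sequence, 5′ to 3′ on the strand of the gene, and capitals mark the E2F-type words. The words begin at base -27 in Orc1 (chr4:108579284-108579453, plus strand), -138 in Cdc6 (chr11:98907981-98908150, plus strand) and -41 in Gins3 (chr8:95633389-95633558, plus strand). No E2F-type word is in the printed bases of Mcm2 (chr6:88898781-88898950, minus strand), Rpa2 (chr4:132768190-132768359, plus strand) or Rfc4 (chr16:23127731-23127900, minus strand).
Mcm2: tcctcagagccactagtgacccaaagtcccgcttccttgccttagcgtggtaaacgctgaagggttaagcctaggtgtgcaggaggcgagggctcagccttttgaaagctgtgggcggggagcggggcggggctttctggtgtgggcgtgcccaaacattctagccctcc
Orc1: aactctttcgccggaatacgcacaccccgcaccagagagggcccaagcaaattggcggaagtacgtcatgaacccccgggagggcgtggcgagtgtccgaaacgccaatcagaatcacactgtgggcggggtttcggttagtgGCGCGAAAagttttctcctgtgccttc
Cdc6: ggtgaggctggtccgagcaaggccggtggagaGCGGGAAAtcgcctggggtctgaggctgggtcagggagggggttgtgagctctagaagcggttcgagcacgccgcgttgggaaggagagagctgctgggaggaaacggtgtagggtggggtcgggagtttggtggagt
Gins3: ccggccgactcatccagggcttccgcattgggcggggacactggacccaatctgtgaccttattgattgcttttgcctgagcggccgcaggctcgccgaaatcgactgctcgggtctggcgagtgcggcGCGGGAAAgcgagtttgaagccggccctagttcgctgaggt
Rpa2: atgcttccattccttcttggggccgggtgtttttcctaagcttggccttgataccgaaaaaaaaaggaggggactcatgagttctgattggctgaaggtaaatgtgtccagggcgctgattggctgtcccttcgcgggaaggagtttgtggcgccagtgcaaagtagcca
Rfc4: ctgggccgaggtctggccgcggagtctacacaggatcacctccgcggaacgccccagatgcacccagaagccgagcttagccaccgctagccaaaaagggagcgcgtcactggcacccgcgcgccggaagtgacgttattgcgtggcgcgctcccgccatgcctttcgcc

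Mcm5, Mcm6 and Orc3 are added as further examples of such words. They were chosen after the words were seen, so they cannot tell whether a word goes with a larger rise. In Mcm5 (chr8:75109339-75109508, plus strand) overlapping words begin at -153 and -149. In Mcm6 (chr1:128359706-128359875, minus strand) overlapping words begin at -110 and -106, and another begins at -47. Orc3 (chr4:34614943-34615112, minus strand), one of the members that changed least, has a word at -41.
Mcm5: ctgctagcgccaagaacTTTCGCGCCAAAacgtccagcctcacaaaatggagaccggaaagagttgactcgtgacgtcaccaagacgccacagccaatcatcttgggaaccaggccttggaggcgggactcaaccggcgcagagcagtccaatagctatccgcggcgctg
Mcm6: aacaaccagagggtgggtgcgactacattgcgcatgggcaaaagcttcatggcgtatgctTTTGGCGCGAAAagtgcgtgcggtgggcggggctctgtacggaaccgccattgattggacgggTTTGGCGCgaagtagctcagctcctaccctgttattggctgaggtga
Orc3: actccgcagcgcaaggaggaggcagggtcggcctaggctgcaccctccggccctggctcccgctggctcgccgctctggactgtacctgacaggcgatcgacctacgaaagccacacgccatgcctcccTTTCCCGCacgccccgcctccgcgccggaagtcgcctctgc

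The 6 subunits of the MCM2-7 ring, the motor of the helicase, rose against both normal tissues, by a median of 3.65 log2 units over CGNPs and 4.63 over WC (4.61 with Mcm3 at its bound). Mcm6 had log2 levels of 11.66, 12.28 and 12.44 (lowest, median and highest) in MBs, 7.78 and 6.89 in CGNPs and 3.60 and 4.62 in WC. Its levels formed 3 steps with no overlap, at differences of 4.87 ± 0.29 over CGNPs (SE, adjusted p = 1.19e-06) and 8.09 ± 0.29 over WC (adjusted p = 1.54e-08), the largest difference from WC among the members. Mcm2 ran from 9.85 through a median of 10.14 to 10.61 in MBs, with 3.71 and 4.60 in CGNPs and 4.11 and 4.09 in WC. The normal samples of Mcm2 overlapped, so that MBs exceeded CGNPs by 6.02 ± 0.25 (adjusted p = 9.09e-08), the largest rise over CGNPs, and WC by 6.07 ± 0.25 (adjusted p = 3.85e-08). Mcm4 reached 11.00, 11.33 and 11.73 in MBs, 7.86 and 8.09 in CGNPs and 7.38 and 7.70 in WC. Mcm7 reached 10.98, 11.25 and 11.37 in MBs, 7.73 and 7.92 in CGNPs and 6.54 and 6.67 in WC. Both lay clear of the normal samples in each MB, at 3.38 above CGNPs and at 3.81 (Mcm4) and 4.60 (Mcm7) above WC. Mcm7 varied little among tumors (SD 0.14, n = 8) and also rose in CGNPs over WC, by 1.22 ± 0.13 (adjusted p = 7.55e-05).

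Mcm3, read by 3 probe sets, was at 6.78, 7.47 and 7.60 in MBs, 3.61 and 3.22 in CGNPs and 2.66 and 2.66 in WC. In WC it lay at the floor of the table, so its rise over WC was at least 4.63 log2 units, and its rise over CGNPs was 3.91 ± 0.21 (adjusted p = 5.04e-07). Taken singly, the probe sets of Mcm3 gave 2.92, 5.41 and 3.41 over CGNPs. Mcm5 had 6.23, 7.21 and 7.52 in MBs, 3.73 and 4.01 in CGNPs and 3.22 and 3.57 in WC, a rise of 3.17 ± 0.30 over CGNPs (adjusted p = 2.18e-05). That value averages 2 probe sets of unequal response, since the brighter alone gave 4.83 over CGNPs and the dimmer 1.51. The members named for the MCM family but outside the ring rose too. Mcm8, which partners MCM9 in DNA repair, ranged from 6.66 to 7.74 in MBs around a median of 7.45, with 4.03 and 4.40 in CGNPs and 3.21 and 3.81 in WC, and rose by 3.09 ± 0.33 over CGNPs (adjusted p = 4.84e-05) and 3.80 over WC. Mcm10, which helps to switch on the assembled helicase, had 4.16, 4.51 and 4.71 in MBs, 2.52 and 2.71 in CGNPs and 2.44 and 2.34 in WC, where it lay at the floor. Its rise was 1.88 ± 0.13 over CGNPs (adjusted p = 3.46e-06) and at least 1.79 over WC, and on the brightest of its 3 probe sets it was 4.84 over CGNPs.

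**Figure D3:**
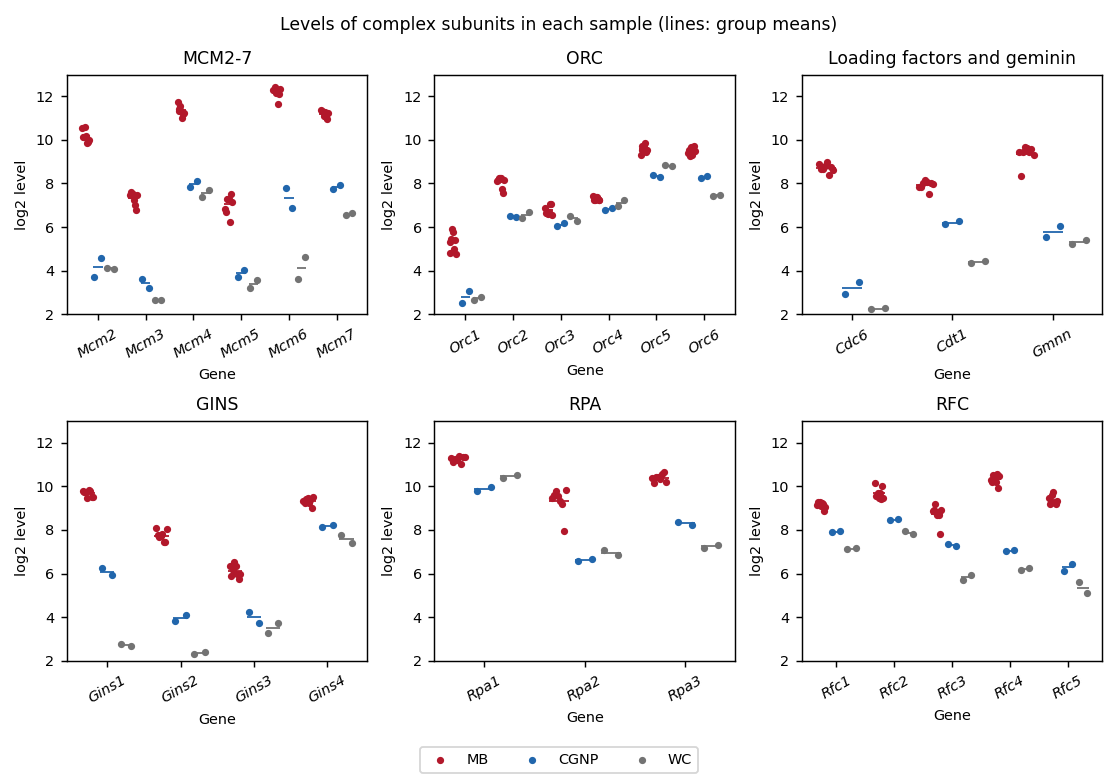
Log2 level (y axis) of each subunit (x axis) of MCM2-7, ORC, the loading factors with geminin, GINS, RPA and RFC in the 8 MBs (red), 2 CGNP samples (blue) and 2 WC samples (grey), with points for samples and lines for group means. MBs lie far above both normal tissues for the MCM subunits and Cdc6, and close to them for Orc3 and Orc4.

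ORC had the smallest median rise of MCM2-7, ORC, GINS, RPA and RFC. All 6 subunits rose over CGNPs, by a median of 1.20 log2 units, and 4 of 6 rose over WC, by a median of 1.13 over the 6. Orc1, the subunit whose level is known to cycle in mammalian cells, had log2 levels of 4.75, 5.37 and 5.92 in MBs, 2.53 and 3.05 in CGNPs and 2.67 and 2.79 in WC. It rose by 2.52 ± 0.31 over CGNPs (adjusted p = 0.000135) and 2.58 ± 0.31 over WC (adjusted p = 7.74e-05), the largest rise of the complex in both comparisons. Taken singly, the probe sets of Orc1 gave 3.63 and 1.41 over CGNPs. Orc2 was at 7.57, 8.16 and 8.25 in MBs, 6.52 and 6.46 in CGNPs and 6.40 and 6.71 in WC, at 1.57 above CGNPs and 1.51 above WC. Orc6, the subunit least tightly held in the complex, stood in 3 steps, at 9.28, 9.47 and 9.73 in MBs, 8.27 and 8.33 in CGNPs and 7.45 and 7.48 in WC. Its rise was 1.18 ± 0.11 over CGNPs (adjusted p = 2.75e-05) and 2.02 ± 0.11 over WC (adjusted p = 3.69e-07). Orc5, part of the ATPase core of ORC, took the other order of the normal tissues, with 9.30, 9.53 and 9.86 in MBs, 8.39 and 8.32 in CGNPs and 8.86 and 8.79 in WC, and MBs exceeded WC by 0.75 ± 0.12 (adjusted p = 0.000557).

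Orc3 and Orc4, further subunits of the core, were the ORC members with the smallest differences. Orc3 had 6.55, 6.67 and 7.07 in MBs, 6.03 and 6.18 in CGNPs and 6.53 and 6.30 in WC. It rose over CGNPs by 0.67 ± 0.15 (adjusted p = 0.00505), a call that was lost without CGNP_2698 (0.59, adjusted p = 0.061), and its difference from WC, 0.35 ± 0.15, did not pass (adjusted p = 0.0802). Its 3 probe sets disagreed, and on the brightest MBs exceeded WC by 1.12 (adjusted p = 6.43e-05). Orc4 had 7.23, 7.26 and 7.41 in MBs, 6.77 and 6.90 in CGNPs and 6.97 and 7.24 in WC, the smallest spread among tumors of all members (SD 0.07, for a mean of 4 probe sets). MBs exceeded CGNPs by 0.47 ± 0.07 (adjusted p = 0.000584), and overlapped WC, at a difference of 0.19 (95% interval 0.03 to 0.35, adjusted p = 0.0551) that passed without WC_2647 (0.33, adjusted p = 0.00826) and on the brightest of its 4 probe sets (0.33, adjusted p = 0.0427). The 95% interval of Orc3 against WC, 0.02 to 0.68, likewise allows a small rise. The 4 probe sets of Orc4 disagreed too, at 0.12, 0.11, 1.23 and 0.40 over CGNPs. From WC they differed by -0.093, -0.035, 0.569 and 0.326 in the same order.

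Cdc6, Cdt1 and Gmnn, the loading factors and their inhibitor, rose by medians of 3.56 over CGNPs and 4.04 over WC. Cdc6, the ATPase that helps to close the MCM ring around DNA, was at 8.37, 8.72 and 8.98 in MBs, 2.94 and 3.49 in CGNPs and 2.25 and 2.27 in WC, which is the floor. The rise was 5.51 ± 0.16 over CGNPs (adjusted p = 8.55e-09), and at least 6.02 over WC (adjusted p = 9.88e-10), with no overlap of any groups. Cdt1, which brings the ring to ORC, was graded, with 7.53, 7.99 and 8.15 in MBs, 6.13 and 6.28 in CGNPs and 4.36 and 4.44 in WC. MBs exceeded CGNPs by 1.72 ± 0.14 (adjusted p = 7.85e-06) and WC by 3.53 ± 0.14 (adjusted p = 2.67e-08). One of its 3 probe sets lay at the floor in all samples and pulled these means down, and on the brightest the differences were 2.43 from CGNPs and 5.04 from WC. Gmnn, which encodes geminin, had 8.36, 9.43 and 9.67 in MBs, 5.53 and 6.05 in CGNPs and 5.24 and 5.40 in WC. The inhibitor rose in MBs as the factor it inhibits did, by 3.56 ± 0.30 over CGNPs (adjusted p = 1.07e-05) and 4.04 ± 0.30 over WC (adjusted p = 2.61e-06).

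Of the origin-firing kinase, Dbf4 rose and Cdc7 did not pass. Dbf4, the activating subunit, had log2 levels of 6.29, 6.39 and 6.68 in MBs, 5.06 and 4.78 in CGNPs and 2.74 and 2.80 in WC, and MBs exceeded CGNPs by 1.49 ± 0.11 (adjusted p = 3.47e-06) and WC by 3.65 ± 0.11 (adjusted p = 2.92e-09). One of its 2 probe sets lay at the floor in all samples, and on the other the differences were 2.95 from CGNPs and 7.25 from WC. Cdc7, the catalytic subunit, had 6.63, 7.89 and 8.15 in MBs, 7.79 and 7.68 in CGNPs and 7.48 and 7.80 in WC. The groups overlapped, at a difference of -0.02 from CGNPs (95% interval -0.76 to 0.73) and 0.07 from WC (95% interval -0.67 to 0.82). Its 2 probe sets went apart, and the brighter read 9.56 to 10.32 in MBs, 9.37 and 9.27 in CGNPs and 9.14 and 9.38 in WC, at differences of 0.59 from CGNPs (adjusted p = 0.02) and 0.65 from WC (adjusted p = 0.0106). On the dimmer, MB_706, the tumor with the 3′ excess, read 3.47 and the other MBs 5.41 to 5.99, against 6.21 and 6.10 in CGNPs and 5.83 and 6.23 in WC. Without MB_706 the mean of both probe sets differed by 0.14 from CGNPs (adjusted p = 0.637) and by 0.23 from WC (adjusted p = 0.316). Cdc45, a part of the working helicase, had 5.78, 5.99 and 6.42 in MBs, 3.21 and 3.43 in CGNPs and 3.19 and 3.50 in WC, a rise of 2.70 ± 0.16 over CGNPs (adjusted p = 9.87e-07) and 2.67 ± 0.16 over WC (adjusted p = 5.04e-07). On the brighter of its 2 probe sets the rise was 4.85 over CGNPs and 4.93 over WC.

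All 4 GINS subunits rose against both normal tissues, with medians of 2.87 over CGNPs and 4.02 over WC (3.84 with Gins2 at its bound). Gins1 had 9.45, 9.74 and 9.85 in MBs, 6.25 and 5.93 in CGNPs and 2.75 and 2.68 in WC. It fell into 3 steps like Mcm6, at 3.59 ± 0.12 over CGNPs (adjusted p = 2.19e-08) and 6.96 ± 0.12 over WC (adjusted p = 6.67e-11). Gins2 was graded as well, with 7.43, 7.73 and 8.10 in MBs, 3.82 and 4.08 in CGNPs and 2.29 and 2.38 in WC, a rise of 3.80 ± 0.17 over CGNPs (adjusted p = 1.43e-07) and at least 5.05 over the floor level of WC. Gins3 had 5.76, 6.08 and 6.54 in MBs, 4.24 and 3.74 in CGNPs and 3.29 and 3.71 in WC, and Gins4 had 9.01, 9.36 and 9.49 in MBs, 8.16 and 8.23 in CGNPs and 7.76 and 7.42 in WC. Each MB lay above each normal sample for both, at 2.14 (Gins3) and 1.13 (Gins4) over CGNPs and 2.63 (Gins3) and 1.73 (Gins4) over WC. The measured rises thus differed between subunits of one complex. They were read by different probe sets, whose part in this was not tested.

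**Figure D4:**
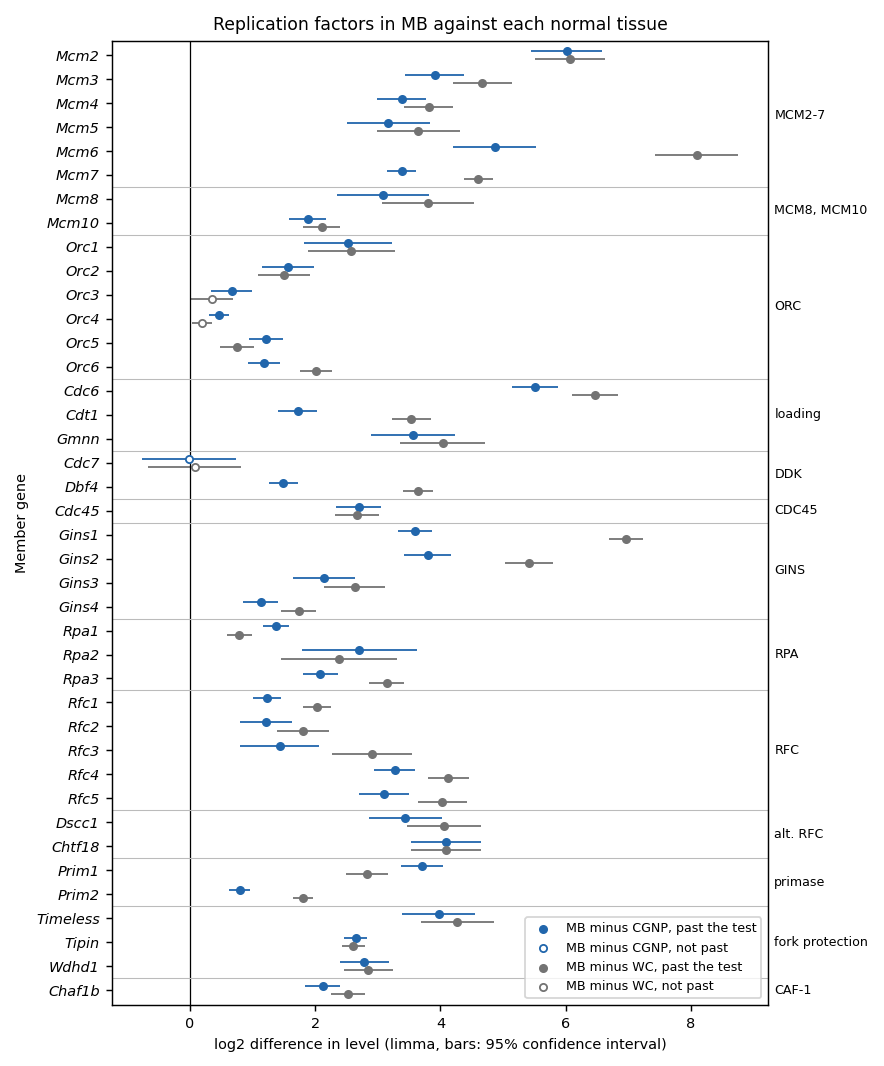
Fitted log2 difference (x axis, with 95% confidence intervals as bars) of MBs from CGNPs (blue, above) and from WC (grey, below) for each measured member (y axis, by complex), with filled points past the test and open points not, and with fitted values also for genes at the floor, whose bounds are in the text. The points of Cdc7 lie near 0, the MB minus WC points of Orc3 and Orc4 are open, and Mcm6 and Gins1 show the widest gap between the comparisons.

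RPA, the trimer that covers single-stranded DNA in replication and repair, rose in all 3 subunits, and its normal levels depended on the subunit. Rpa1, the large DNA-binding subunit, had 11.04, 11.28 and 11.42 in MBs, 9.81 and 9.96 in CGNPs and 10.40 and 10.53 in WC. It was the measured RPA subunit with the smallest rise, at 1.37 ± 0.09 over CGNPs (adjusted p = 2.24e-06) and 0.79 ± 0.09 over WC (adjusted p = 5.49e-05). Rpa2, the subunit phosphorylated after damage, had 7.95, 9.51 and 9.85 in MBs, 6.60 and 6.67 in CGNPs and 7.09 and 6.83 in WC, with the widest spread among tumors of all members (SD 0.60). The low value was MB_706, where 1 of its 2 probe sets read 6.25 against 8.88 to 9.68 in the other MBs, while the other read 9.65 against 9.54 to 10.04. MBs exceeded CGNPs by 2.71 ± 0.41 (adjusted p = 0.00051) and by 2.91 without MB_706 (adjusted p = 2.53e-06), and exceeded WC by 2.38 ± 0.41 (adjusted p = 0.000874). Rpa3, the smallest subunit, was graded, with 10.13, 10.42 and 10.65 in MBs, 8.38 and 8.25 in CGNPs and 7.19 and 7.32 in WC, a rise of 2.08 over CGNPs and 3.14 over WC.

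The clamp loader RFC rose in its 5 subunits by a median of 1.43 over CGNPs and 2.91 over WC. Rfc4 and Rfc5, small subunits of the loader, rose most. Rfc4 had 9.94, 10.33 and 10.57 in MBs, 7.04 and 7.08 in CGNPs and 6.16 and 6.24 in WC, with rises of 3.27 ± 0.15 over CGNPs (adjusted p = 1.56e-07) and 4.13 ± 0.15 over WC (adjusted p = 1.33e-08). Rfc5 had 9.21, 9.31 and 9.72 in MBs, 6.12 and 6.44 in CGNPs and 5.63 and 5.09 in WC, with rises of 3.10 ± 0.18 over CGNPs (adjusted p = 7.45e-07) and 4.03 ± 0.18 over WC (adjusted p = 5.44e-08). Rfc1, the large subunit that is specific to the PCNA loader, had 8.86, 9.17 and 9.30 in MBs, 7.90 and 7.94 in CGNPs and 7.11 and 7.15 in WC, and Rfc2 had 9.43, 9.62 and 10.15 in MBs, 8.45 and 8.49 in CGNPs and 7.95 and 7.82 in WC. Rfc1 rose by 1.23 over CGNPs and 2.02 over WC, and Rfc2 by 1.21 over CGNPs and 1.80 over WC, below the intervals of Rfc4 and Rfc5. Rfc3 had 7.81, 8.84 and 9.22 in MBs, 7.34 and 7.27 in CGNPs and 5.72 and 5.95 in WC, a rise of 1.43 ± 0.28 over CGNPs (adjusted p = 0.00255) and 2.91 ± 0.28 over WC (adjusted p = 1.68e-05). Its lowest tumor was again MB_706, and without it the rise over CGNPs was 1.57 (adjusted p = 2.06e-05).

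Dscc1 and Chtf18 encode subunits of the alternative loader that serves sister chromatid cohesion. Dscc1 had 6.22, 6.37 and 7.22 in MBs, 3.21 and 3.01 in CGNPs and 2.45 and 2.54 in WC, a rise of 3.44 ± 0.26 over CGNPs (adjusted p = 5.45e-06) and at least 3.85 over WC. Its 2 probe sets responded unequally, and the brighter alone gave 5.24 over CGNPs and 6.46 over WC. Chtf18 was read at 5.90, 6.69 and 6.99 in MBs and at the same floor value of 2.48 in each of the 4 normal samples. It was the one member at the floor in CGNPs as well as in WC, so both rises were at least 3.87, with adjusted p = 1.26e-06 against CGNPs and 6.25e-07 against WC.

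The primase subunits had opposite orders in the normal tissues. Prim1, the catalytic subunit, had 10.20, 10.39 and 10.81 in MBs, 6.86 and 6.65 in CGNPs and 7.57 and 7.68 in WC, so MBs exceeded CGNPs by 3.71 ± 0.15 (adjusted p = 7.34e-08) and WC by 2.83 ± 0.15 (adjusted p = 2.21e-07). Prim2, the regulatory subunit, had 6.35, 6.45 and 6.56 in MBs, 5.78 and 5.55 in CGNPs and 4.57 and 4.73 in WC, at 0.79 ± 0.07 over CGNPs (adjusted p = 1.92e-05) and 1.81 ± 0.07 over WC (adjusted p = 3.29e-08). One of the 3 Prim2 probe sets lay at the floor in all samples, and the other probe sets gave 1.24 and 1.14 over CGNPs and 2.71 and 2.71 over WC.

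The fork protection and coupling genes rose in MBs and did not pass between the normal tissues. Timeless, which couples helicase and polymerase with its partner TIPIN, had 7.17, 7.91 and 8.28 in MBs, 4.03 and 3.77 in CGNPs and 3.49 and 3.72 in WC, a rise of 3.97 ± 0.26 over CGNPs (adjusted p = 2.09e-06). Tipin had 11.25, 11.42 and 11.60 in MBs, 8.83 and 8.69 in CGNPs and 8.72 and 8.88 in WC, a rise of 2.65 ± 0.08 over CGNPs (adjusted p = 1.14e-08). Wdhd1, the AND-1 protein that links the helicase to DNA polymerase alpha, had 8.22, 8.38 and 8.98 in MBs, 5.60 and 5.72 in CGNPs and 5.59 and 5.61 in WC, a rise of 2.79 ± 0.17 over CGNPs (adjusted p = 1.46e-06). The rises over WC were 4.27, 2.61 and 2.85 for Timeless, Tipin and Wdhd1. Between CGNPs and WC the 95% intervals ran from -0.44 to 1.04 for Timeless, -0.27 to 0.19 for Tipin and -0.43 to 0.56 for Wdhd1. Chaf1b, a subunit of CAF-1 that lays histones on new DNA, had 4.54, 4.89 and 5.13 in MBs, 2.74 and 2.83 in CGNPs and 2.38 and 2.38 in WC. It rose by 2.12 ± 0.12 over CGNPs (adjusted p = 8.91e-07) and at least 2.20 over WC. Of its 2 probe sets one lay at the floor in all samples, and the other gave 4.23 over CGNPs.

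Between the normal tissues, calls differed among the subunits of a complex. In CGNPs 2 of 6 MCM subunits, 3 of 4 GINS subunits and 4 of 5 RFC subunits rose and none fell. Of 6 ORC subunits 1 rose and 2 fell, and of RPA 1 rose and 1 fell. Over all genes 14.9% rose and 13.6% fell, so the few ORC and RPA calls cannot be read as particular to these complexes. The members that rose in CGNPs over WC were led by Gins1 (3.37 ± 0.15, adjusted p = 1.68e-07) and Mcm6 (3.22 ± 0.37, adjusted p = 0.000134). Next came Dbf4 (2.15 ± 0.13, adjusted p = 1.74e-06) and Cdt1 (1.81 ± 0.18, adjusted p = 4.13e-05). Rfc3 followed at 1.47, then Mcm7 at 1.22, Rpa3 at 1.06, Prim2 at 1.02, Rfc5 at 0.93, Rfc4 at 0.86, Orc6 at 0.84, Rfc1 at 0.79 and Gins4 at 0.61. Against the floor level of WC, Gins2 rose by at least 1.25 (adjusted p = 0.000323) and Cdc6 by at least 0.51 (adjusted p = 0.00615), and neither has a place in this order. Mcm2 did not pass, at 0.05 (95% interval -0.66 to 0.77), although Mki67 was higher in CGNPs than in WC by at least 6.32. The interval allows a rise of Mcm2 in CGNPs of up to 0.77, which lies below the lower limits of Mcm6 (2.39) and Gins1 (3.03). It rests on the shared spread, while the SD of Mcm2 was 0.28 in MBs and 0.63 in CGNPs. The single probe set of Mcm2 also read below 5 in all normal samples, so whether Mcm2 is unchanged in CGNPs is not settled. The members lower in CGNPs were Prim1 (-0.87 ± 0.19, adjusted p = 0.00629), Rpa1 (-0.58 ± 0.12, adjusted p = 0.00383), Orc5 (-0.47 ± 0.15, adjusted p = 0.0451) and Orc4 (-0.27 ± 0.09, adjusted p = 0.0498).

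With 2 arrays per group several of these calls were fragile. The shared spread also hides unequal groups: the SD of Mcm6 was 0.24 in MBs, 0.63 in CGNPs and 0.72 in WC. Leaving out 1 sample at a time ended the call of Orc4 for 10 of the 12 samples (not MB_1187 or WC_2646) and that of Orc5 for 10 (not MB_1187 or MB_630), and ended neither that of Rpa1 nor that of Prim1. Among the rises, Mcm6 and Cdc6 were lost when CGNPs and WC were fitted without the MBs (adjusted p = 0.069 and 0.114), Gins4 was lost without CGNP_2698, CGNP_2705 or WC_2647 (adjusted p = 0.0542, 0.0849 and 0.131), Rfc5 without CGNP_2705 or WC_2647 (adjusted p = 0.0783 and 0.0854) and Rfc3 without CGNP_2698 or WC_2646 (adjusted p = 0.0552 and 0.0686). Mcm3, at least 0.71 above the floor level of WC, missed the threshold (adjusted p = 0.0603) and passed without MB_706 (adjusted p = 0.0177) and on its brightest probe set (adjusted p = 0.000738). On the brightest probe set Dscc1 also passed (1.22, adjusted p = 0.0355) and Rfc3 did not (adjusted p = 0.0869), and Chaf1b passed without MB_630 (adjusted p = 0.0131). Mcm4, Mcm5, Mcm8, Mcm10, Orc1, Orc2, Orc3, Gmnn, Cdc7, Cdc45, Gins3, Rpa2, Rfc2, Dscc1, Chtf18, Timeless, Tipin, Wdhd1 and Chaf1b, like Mcm2 and Mcm3, did not pass between CGNPs and WC.

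**Figure D5:**
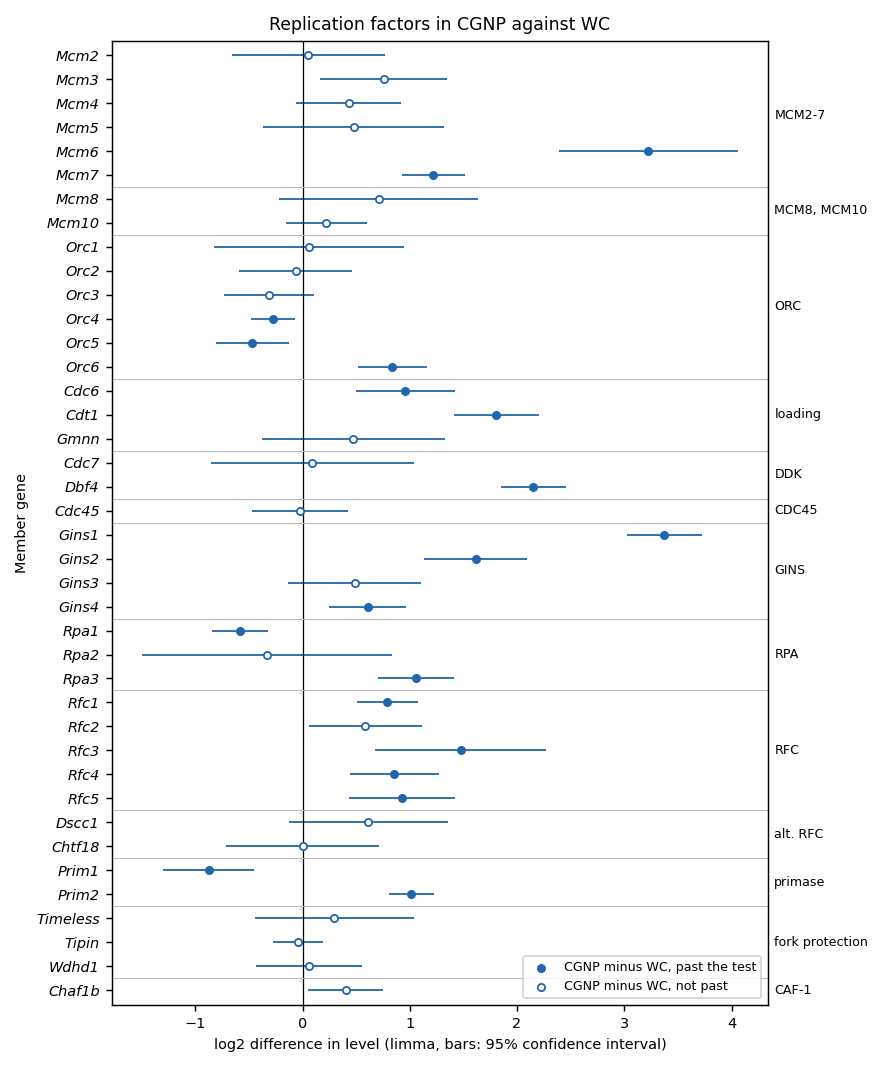
Fitted log2 difference (x axis, with 95% confidence intervals as bars) of CGNPs from WC for each measured member (y axis, by complex), with filled points past the test and open points not, and with fitted values also for Mcm3, Mcm10, Cdc6, Gins2, Dscc1 and Chaf1b, which lay at the floor in WC. Gins1 and Mcm6 lie beyond 3, Prim1, Rpa1, Orc5 and Orc4 lie below 0, and the point of Mcm2 sits near 0 with a wide interval.

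Among the 8 tumors the SD of most members was small beside their distance from normal tissue, with Cdc7 (SD 0.48) and, against WC, Orc3 (SD 0.20) among the exceptions. The SD over MBs ran from 0.07 (Orc4) to 0.60 (Rpa2) with a median of 0.21, where the median SD over all genes with a mean MB level above 5 was 0.27. MB_706 was the lowest MB for 14 members and MB_630 for 11, among them 4 of the 6 MCM subunits. The median deviation from the MB median of each member was -0.03 in MB_706 and -0.16 in MB_630. MB_1207 was the highest for 9 members and MB_1187 for 8. The low values of MB_706 sat in few probe sets: of 58 member probe sets with a mean MB level above 5, MB_706 was lowest in 17 and more than 1 log2 unit below the median of the other MBs in 5, which read Mcm3, Cdc7, Gins3, Rpa2 and Rfc3. MB_706 had both the 3′ excess and low values, and MB_630 had both high marker sums of other cell types and low values. Each pairing was seen in a single tumor. The part of the 3′ excess and of the marker sums in these low values was not tested. Without MB_630, and likewise without MB_706, the members that rose numbered 39 over CGNPs and 37 over WC. Whether MB_706 and MB_1206, with the Xrcc4 c/c genotype, differ from the others was not tested either.

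Other genes of DNA replication, a list of 41 that were all measured, moved with the members. Against CGNPs 37 rose, none fell and 4 did not pass, with a median of 1.81. The strongest were Pole, the catalytic subunit of the leading-strand polymerase, at 5.51 ± 0.16 (adjusted p = 7.47e-09), and Mms22l, which acts at stalled forks, at 4.01 ± 0.21 (adjusted p = 5e-07). Against WC 39 rose and 1 fell, with a median of 1.95 (1.92 with 2 genes at their bounds), led by Rrm2, the S-phase subunit of ribonucleotide reductase, at 7.08 ± 0.40 (adjusted p = 3.59e-07). The gene that fell was Pold4, the small subunit of DNA polymerase delta, at -0.95 ± 0.28 (adjusted p = 0.0179), with 5.04 to 6.13 in MBs against 6.79 and 6.29 in WC. Between CGNPs and WC 10 rose, with Rrm2 at 3.62 ± 0.51 (adjusted p = 0.000466) and the histone chaperone Asf1b at 2.08 ± 0.33 (adjusted p = 0.00107), 1 fell and 30 did not pass. Rif1, a regulator of replication timing, was the one that fell, at 6.16 and 6.20 in CGNPs against 8.58 and 8.48 in WC (-2.36 ± 0.17, adjusted p = 4.19e-06). The 9 proliferation markers measured all rose in MBs over CGNPs, by a median of 3.41, and over WC, by 6.31 or, with 3 genes at the floor of WC taken at their bounds, 5.94. In CGNPs 7 of the 9 rose over WC, by a median of 2.43 over the 9 (2.06 with bounds), beside 0.48 for the replication factors.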

How the data were processed

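RNA of 8 MBs, 2 CGNP samples and 2 WC samples was hybridised to Affymetrix mouse arrays, and the authors made the deposited log2 values with GCRMA, which subtracts background by probe sequence, normalizes arrays to each other and summarises probes. The table has a floor at 2.20, so differences from genes near it are understated and were given as bounds. The table held 45101 probe sets. Beside 64 hybridisation controls, which were dropped, 34945 had a single gene in the probe table, 932 had several genes and 9160 had none. A gene's value was the mean of its probe sets with 1 gene, without those ending in _s_at or _x_at unless no other existed (290 genes), which gave 18193 genes. Averaging a responding with a silent probe set shrinks a difference, and 5 of the 70 probe sets of the members lay at the floor in all samples. A further probe set was shared by Orc4 with another gene and was left out. The table held 0 other per-sample columns.

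All 12 samples were fitted in limma 3.58.1 (lmFit and eBayes, R 4.3.3) with a mean per group, and p-values of MB minus CGNP, MB minus WC and CGNP minus WC were adjusted by Benjamini-Hochberg over all genes, with a threshold of 0.05. The methods compare MBs with CGNPs and WC as 1 group by unpaired t-tests, which was run as an alternative. Other alternatives were the choice of probe sets, quantile normalization, a shift of arrays to one median, array weights, a filter on level, a minimum difference of 1, fits without the third group, and leaving out each sample. The script was tested on simulated data. All 41 members were to be described, and in each other list at most 2 genes per direction, those that passed by the widest margin of difference, could be named. The members and lists were chosen with earlier results of these data known, and the promoters of Mcm5, Mcm6 and Orc3 after their words were seen. Promoter words were counted in RefSeq windows (GRCm38.p6) with Python 3.11.15. Arrays give no counts, so no depth was computed. For Chaf1a only the promoter window was read, and its level was not analysed here.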

Additional observations from a re-analysis of the deposited data

Results flagged for a closer look

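In 5 of the 40 measured members, 1 of the 8 MBs stood far from the others, with its gap to the nearest tumor divided by the range of the group above Dixon's 95% critical value for a group of that size. Chance alone gives such a gap in about 1 of 20 groups. The share over all genes was not computed, so the count cannot be read as particular to the members. Mcm6 was at 11.66 in MB_630, below the next tumor at 12.13, in a group that reached 12.44. The same tumor had the highest sums of Purkinje, mesenchymal, endothelial and mature granule neuron markers among MBs (10.36, 10.82, 8.27 and 11.18, against at most 8.10, 8.14, 6.98 and 10.54 in the other MBs), whose part in this value was not tested. Without MB_630 its rise was 4.94 over CGNPs and 8.17 over WC. Gmnn was at 8.36 in MB_1197, with the next tumor at 9.32 and the highest at 9.67, and its rise without this tumor was 3.71 over CGNPs and 4.18 over WC. The other 3 genes were low in MB_706, the tumor with the 3′ excess on the control probe sets, whose part in these values was not tested. Cdc7 was at 6.63 there and at 7.49 in the next tumor, Rpa2 at 7.95 and 9.21, and Rfc3 at 7.81 and 8.70. For each of these genes the low value came mainly from one probe set, while the other lay less than 0.4 log2 units below the median of the remaining tumors.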

How the results depend on the processing

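The members higher in MBs numbered 29 to 40 of 40 over CGNPs and 34 to 40 over WC in the alternatives, and none fell in any of them. Of 839 values of single members per comparison, 833 kept direction and side of the threshold for MB against CGNP, 833 for MB against WC and 759 for CGNP against WC. Shifting arrays to one median moved the median of all genes by -0.12 for MB against CGNP, -0.04 for MB against WC and 0.08 for CGNP against WC. The values that changed are given by setting, and the cause was not tested. With all unique probe sets the GINS median was 2.30 over CGNPs and 3.38 over WC, the MCM median 4.97 over WC and 0.89 for CGNP against WC, and Mcm2 -0.31 for CGNP against WC. With the probe set of highest signal, the MCM medians were 4.85, 5.79 and 0.95 for MB against CGNP, MB against WC and CGNP against WC. RFC was then 1.57 over CGNPs and 2.65 over WC, RPA 2.72 over WC, and GINS 1.25 and ORC -0.0050 for CGNP against WC. Cdc7 was 0.59 over CGNPs, and for CGNP against WC Orc3 was 0.064, Cdc45 0.071 and Timeless -0.0077. Of the other replication genes 2 fell over WC, and 18 rose and 2 fell for CGNP against WC. With quantile normalization ORC was 1.05 and Cdc7 -0.032 over WC, 2 other replication genes fell over WC and Cdc45 was 0.015 for CGNP against WC. With arrays shifted to one median ORC was 1.08 and RPA 1.97 over CGNPs, and for CGNP against WC ORC was -0.088, Orc2 0.018, Cdc45 0.056 and Tipin 0.042, with 2 members lower. Array weights gave 2 members lower in CGNPs, and Cdc7 0.040 over CGNPs.

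A minimum difference of 1 left 22 other replication genes higher over CGNPs, with 855 genes higher and 886 lower in all, and 25 higher and 0 lower over WC, with 1317 and 1460 in all. For CGNP against WC it left 4 members higher and 0 lower, 1 other replication gene higher, and 542 genes higher and 669 lower. With CGNPs and WC as 1 group 1 other replication gene fell. The methods' t-test with adjustment called 6 members higher and 0 lower for CGNP against WC, 6 other replication genes higher, and 1106 genes higher and 1105 lower. Unadjusted it called 17 and 2 other replication genes.

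Leaving out 1 sample at a time, members higher numbered 38 to 39 over CGNPs and 37 to 38 over WC, with 0 lower, and 13 to 16 higher and 2 to 4 lower for CGNP against WC, and 38 to 39 did not overlap normal samples. All genes called ranged from 2449 to 3467 higher and 2890 to 3407 lower over CGNPs, 3140 to 4091 and 3463 to 3892 over WC, and 1950 to 2852 and 1882 to 2575 for CGNP against WC. Medians over CGNPs were 3.61 to 3.70 (MCM), 1.18 to 1.22 (ORC), 2.66 to 3.03 (GINS), 2.02 to 2.15 (RPA) and 1.37 to 1.57 (RFC). Over WC they were 4.60 to 4.69, 1.06 to 1.19, 3.89 to 4.15, 2.25 to 2.58 and 2.79 to 3.04 in that order, and for CGNP against WC 0.53 to 0.70, -0.27 to -0.022, 1.11 to 1.20, -0.46 to -0.20 and 0.77 to 0.88. Other replication genes higher numbered 33 to 38 over CGNPs, with 0 lower, 34 to 39 over WC, with 0 to 2 lower, and 6 to 15 for CGNP against WC, with 1 lower, the fewest without CGNP_2698. Signs turned for Cdc7, at -0.079 to 0.14 over CGNPs (above 0 without MB_630, MB_706 or CGNP_2698), -0.086 to 0.23 over WC and -0.070 to 0.25 for CGNP against WC (both lowest without WC_2646). For CGNP against WC they turned for Mcm2 (-0.39 to 0.50) and Orc1 (-0.20 to 0.32) without CGNP_2705, Orc2 (-0.22 to 0.095) without WC_2647, Cdc45 (-0.18 to 0.13) without CGNP_2698 or WC_2647, and Tipin (-0.12 to 0.042) without CGNP_2705 or WC_2647. No paired analysis was possible because the groups share no mouse number. Small differences are limited by 2 samples in each normal group and by the floor of the table.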
